A study of Mus musculus with 12 samples.

Results

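The 4 libraries described here profile trimethylation (H3K4me3) and monomethylation (H3K4me1) of lysine 4 on histone H3 in mouse embryonic fibroblasts labelled as Fbxw7 knockout. They comprise 2 H3K4me3 and 2 H3K4me1 libraries, out of 12 in the series, and were compared over chromosomes 1 to 19. A region was taken as held when peaks of both libraries of a mark shared at least 1 bp and were merged; 8207 of 12474 merged H3K4me3 regions (65.8%) and 37337 of 71086 merged H3K4me1 regions (52.5%) were held. All cells were cultured in DMEM with serum and non-essential amino acids, and the assay was Cut & Run, in which a nuclease tethered to the antibody releases the DNA around the marked nucleosomes. The other libraries used for reference were the wild-type (WT) H3K4me3 and H3K4me1 libraries, 2 of each, from fibroblasts labelled WT and grown the same way. The labels give neither the way in which Fbxw7 was inactivated nor whether the cells were one line or several, and they do not say that the 2 libraries of a mark came from separate cultures, so the spread between them may be technical.

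H3K4me3 is laid down at active and poised gene starts, mainly by the SET1 and MLL1/MLL2 complexes, and CpG-rich promoters carry it most often. H3K4me1 is written mainly by MLL3 and MLL4 and marks enhancers, together with the shoulders of promoters whose centre is trimethylated. Fbxw7 is the substrate receptor of an SCF ubiquitin ligase that marks proteins such as cyclin E, Myc, Notch and Jun for degradation. The series asks how MLL4 and its products are distributed with and without it; here the marks themselves are set against each other in the knockout cells.

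Depth differed between the marks, and H3K4me3 signal between the genotypes. The knockout H3K4me3 libraries held 5519477 and 5938102 fragments and gave 10186 and 11038 autosomal peaks, and the knockout H3K4me1 libraries held 13627038 and 12611409 fragments and gave 58716 and 52186 peaks. The median peak pileup (fragments stacked at the highest point) was alike in all 4, at 16 and 17 for H3K4me3 and 18 and 17 for H3K4me1. In the WT H3K4me3 libraries, with 11319701 and 6185767 fragments, it was 74 and 39, the second at a depth near that of the knockout libraries, with a median −log10 q (the caller's significance score) of 34.0 and 17.8 against 6.44 and 6.99 in the knockout, so every count of knockout H3K4me3 below comes from weaker peaks than in WT. What the H3K4me3 signal itself did to the comparison of genotypes was not tested. Peaks were called without a control library and not in broad mode.

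The deleted gene gives only a limited check of the labels, because no label says which part of it was removed. Fbxw7 lies at chr3:84814990-84979198 in mm10. H3K4me3 peaks over it numbered 1 and 1 in the knockout libraries and 2 and 3 in the WT libraries, and H3K4me1 peaks numbered 8 and 6 in the knockout and 11 and 10 in WT. Neither mark was held at an end of Fbxw7 in the knockout, where 1 of the 2 H3K4me3 libraries had a peak at an end, whereas H3K4me3 was held there in WT. Of 10 genes that define fibroblasts, 2 carried H3K4me3 at an end in the knockout (Thy1 and Pdgfrb), 2 carried H3K4me1 (Col1a2 and Prrx1) and 6 carried neither (Col1a1, Col3a1, Vim, Pdgfra, Twist1 and Twist2). Of these 6, Col1a1, Col3a1, Vim and Twist1 had an H3K4me3 peak at an end in at least 1 knockout library. Col3a1 and Pdgfra had an H3K4me1 peak there, and Twist2 had no peak of either mark. In WT 8 of the same 10 carried H3K4me3 and 4 carried H3K4me1. Over all genes the shares with H3K4me3 were 35.9% in the knockout and 53.6% in WT. Those with H3K4me1 were 8.94% and 9.91%, and 59.0% of all genes carried neither mark in the knockout. Of 85 genes listed as markers of pluripotent, blood, endothelial, epithelial, neural and muscle cells, 3 carried H3K4me3 in the knockout. Among the 3 was Ptpn11, a widely used phosphatase gene. H3K4me1 was at 5 of the 85, and 77 carried neither. In WT 12 carried H3K4me3 and 7 carried H3K4me1.

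Promoters are shown for 3 genes chosen by a mark near a gene end, not over the promoter itself. They are, by rank of the caller's q, the best-ranked genes with a listed promoter that carried both marks, only H3K4me3 or only H3K4me1 within 1 kb of a gene end. Each runs from 250 bases before to 50 bases after the start site, 5′ to 3′ on the strand of the gene, from RefSeq on GRCm38.p6 (mm10), with CpG dinucleotides in capitals.
Hjurp: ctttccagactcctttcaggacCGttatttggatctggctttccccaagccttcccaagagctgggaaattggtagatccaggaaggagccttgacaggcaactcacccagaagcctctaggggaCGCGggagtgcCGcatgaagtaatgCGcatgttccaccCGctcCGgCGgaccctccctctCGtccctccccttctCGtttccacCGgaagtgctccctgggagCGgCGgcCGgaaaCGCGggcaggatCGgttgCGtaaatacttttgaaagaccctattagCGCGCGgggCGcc
Babam1: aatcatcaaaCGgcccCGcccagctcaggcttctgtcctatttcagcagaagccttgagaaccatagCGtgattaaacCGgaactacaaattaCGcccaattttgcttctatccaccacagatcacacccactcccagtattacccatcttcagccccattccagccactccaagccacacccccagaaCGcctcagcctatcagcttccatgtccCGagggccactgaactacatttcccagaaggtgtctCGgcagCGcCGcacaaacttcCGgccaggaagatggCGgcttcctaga
Dbh: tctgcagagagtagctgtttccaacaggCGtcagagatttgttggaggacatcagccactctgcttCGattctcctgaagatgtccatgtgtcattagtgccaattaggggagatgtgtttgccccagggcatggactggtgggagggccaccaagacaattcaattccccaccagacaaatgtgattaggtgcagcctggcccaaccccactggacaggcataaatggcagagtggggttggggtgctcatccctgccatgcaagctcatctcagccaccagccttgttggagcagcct
The Hjurp promoter (chr1:88277530-88277829, minus strand; Hjurp is the chaperone that loads the centromeric histone CENP-A) has 22 CpG; the held H3K4me3 region covered 158 of its 300 bases, while the H3K4me1 region of the same start window met none of them. The Babam1 promoter (chr8:71396605-71396904, plus strand; a subunit of a BRCA1-containing DNA repair complex) has 12 CpG, and the H3K4me3 region of its start window, which ran on into the gene, met only its last 3 bases. The Dbh promoter (chr2:27165257-27165556, plus strand; dopamine beta-hydroxylase, which makes noradrenaline) has 2 CpG, and neither mark lay over it, since the H3K4me1 region of Dbh was at its 3′ end.

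The marks occupied different places relative to genes. In the H3K4me3 libraries 78.3% and 79.1% of the peaks in held regions touched a gene end, meaning the window of 1 kb either side of the start or the end of a protein-coding gene, against 4.39% and 4.26% in the H3K4me1 libraries. The means were 78.7% ± 0.550 and 4.33% ± 0.0912 (SD, n = 2 each), 74.4 percentage points apart, and the libraries of the marks did not overlap. H3K4me1 was instead shared almost evenly between gene interiors (46.1% ± 0.0567) and intergenic sequence (49.5% ± 0.0345), where H3K4me3 had 17.6% ± 0.526 and 3.67% ± 0.0240 of its peaks. The exact two-sided permutation test gave p = 0.333, the smallest that 2 libraries against 2 allow, so no comparison of marks here can pass a threshold of 0.05 and each is given by its size and by whether the libraries overlap. The difference in place was between 61.8 and 78.6 points under all 12 alternative settings, the cut of every list to 10186 peaks included. In WT it was 67.4 points, with 72.5% and 71.1% of H3K4me3 peaks at gene ends.

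**Figure D1:**
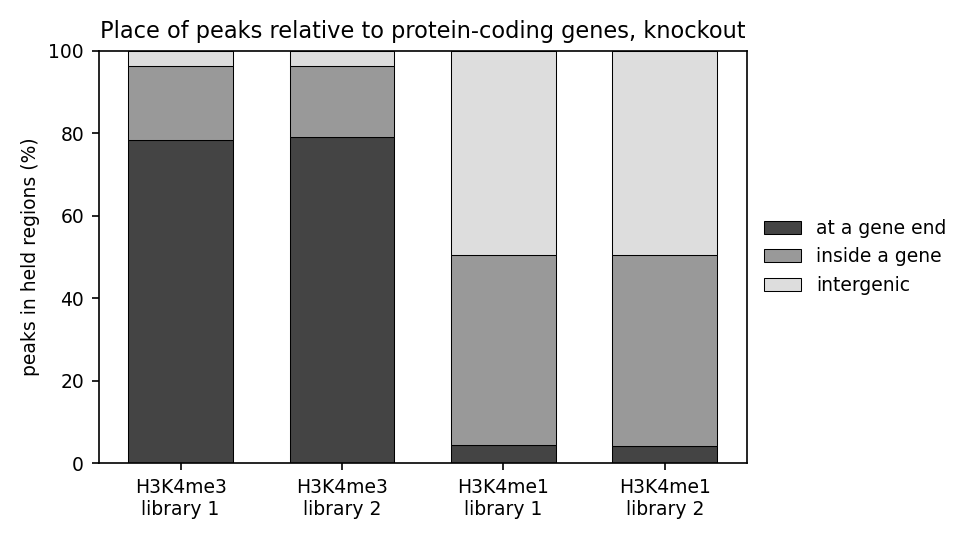
Share of the peaks in held regions (y axis, percent) that lay at a gene end, inside a gene or in intergenic sequence, with a bar for each of the 4 knockout libraries. Gene ends hold 78.3% and 79.1% of H3K4me3 peaks and 4.39% and 4.26% of H3K4me1 peaks.

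Distance gives the same picture over regions. The median held H3K4me3 region lay 136 bp from the nearest end of a protein-coding gene and 24.1% lay across one, while the median H3K4me1 region lay 40602 bp away and 77.7% were more than 10 kb from any end. Gene starts took nearly all of the H3K4me3 at gene ends: where the strand was listed, 5417 regions touched a start window and 51 touched an end window alone, a start share of 99.1%. For H3K4me1 the numbers were 850 and 524, a start share of 61.9%. Of 16457 genes with a listed strand, 35.9% had H3K4me3 and 5.31% had H3K4me1 in the start window, against 2.09% and 3.83% in the end window. H3K4me1 was thus the commoner mark at 3′ ends and H3K4me3 at 5′ ends.

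Some H3K4me3 regions away from protein-coding gene ends lay at other listed starts. Of 1285 regions inside genes, 768 (59.8%) lay within 1 kb of a start site of the RefSeq promoter table, and of 301 intergenic regions 84 (27.9%) did, with 110 at an end of a long non-coding RNA gene and 190 (63.1%) at neither. Among H3K4me1 regions inside genes 2.81% lay at a listed start. Intergenic H3K4me3 regions were also the shortest, with a median of 636 bp against 844 bp at gene ends and 776 bp inside genes. H3K4me1 regions showed the opposite order, with 822 bp at gene ends, 877 bp inside genes and 896 bp in intergenic sequence. These medians are over regions and carry no test.

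Peak length did not separate the marks in the knockout. Median lengths in held regions were 590 and 670 bp for H3K4me3 (630 ± 56.6, SD, n = 2) and 695 and 621 bp for H3K4me1 (658 ± 52.3). The libraries of the marks overlapped, the log2 ratio of H3K4me3 over H3K4me1 was -0.06 and the exact two-sided permutation p was 0.667. The direction was not fixed either: with the lists cut to 10186 peaks by q the log2 ratio was -0.64, and without H3K4me1 library 1 or 2 it was 0.26 or 0.19. In WT the 4 libraries were parted, with 1365 and 1081 bp for H3K4me3 and 705 and 660 bp for H3K4me1, a log2 ratio of 0.83. H3K4me1 lengths in the knockout and WT overlapped (exact two-sided permutation p = 0.667), while H3K4me3 lengths did not (p = 0.333, permutation, the smallest possible), beside the difference in H3K4me3 signal given above.

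The long tail belonged to H3K4me1. Merged held regions had a median of 827 bp for H3K4me3 (25% under 620 bp, longest 2670 bp) and 883 bp for H3K4me1 (25% under 659 bp, longest 3438 bp). Regions above 2 kb made up 20 of the H3K4me3 regions (0.244%) and 515 of the H3K4me1 regions (1.38%), whereas 18.7% of WT H3K4me3 regions were that long. The longest region of either mark was the same place: chr17:39843342-39846011 for H3K4me3 and chr17:39843326-39846763 for H3K4me1, the second reaching into the annotated ribosomal RNA pseudogene Rn18s-rs5 and the first ending before it. Ribosomal RNA sequence is present in many copies, so where its reads were placed is uncertain. Others among the longest H3K4me3 regions were at gene ends: 2406 bp where Lnx2 and Polr1d (an RNA polymerase subunit shared by Pol I and Pol III) lie close together, 2302 bp at Ephb3 (an ephrin receptor) and 2287 bp at Tent5a. None of the other long H3K4me1 regions was at a gene end; 1 of 3033 bp lay inside Cpvl, and those of 3323, 3096 and 3002 bp lay between genes on chromosomes 1 and 8.

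H3K4me3 peaks were the more widely spaced. The median gap from 1 peak to the next was 76936.5 and 78077 bp for H3K4me3 (77507 ± 806, SD, n = 2) and 23913 and 23658 bp for H3K4me1 (23786 ± 180), a 3.26-fold ratio (log2 1.70, exact two-sided permutation p = 0.333) with no overlap of libraries. H3K4me3 also had far fewer peaks, and the ratio went with the number of held peaks. With all lists cut to the 10186 peaks of highest q, 4852 and 4860 H3K4me1 peaks were in held regions against 8215 and 8092 H3K4me3 peaks, and the log2 ratio was -1.28; the cut also keeps only the strongest H3K4me1, so it changes more than list length. Over held regions, 45.1% of H3K4me3 gaps and 14.4% of H3K4me1 gaps exceeded 100 kb, and 5.19% and 8.54% were under 5 kb.

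Joined over gaps under 5 kb, the H3K4me1 regions formed 34149 runs, of which 31196 (91.4%) were single regions and 219 had 3 or more. The largest number of regions in a run was 6. Of the 219 longer runs 8 (3.65%) met an H3K4me3 region, against 0.830% of the single regions. The longer runs span more bases, and the shares were not matched for span. The 5 longest runs held none: 5 regions over 18946 bp at chr6:127039151-127058096 with no protein-coding gene, 6 regions over 18174 bp in Sfi1 (a centrosomal protein), 4 regions over 16836 bp at Serpinb1a (a neutrophil protease inhibitor of the serpin family), 4 regions over 16469 bp at chr13:73881588-73898056 with no protein-coding gene, and 4 regions over 16278 bp in Hecw2 (a HECT ubiquitin ligase). The Sfi1 run held the highest H3K4me1 pileup on any autosome in both libraries, and a pseudogene is annotated inside it.

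**Figure D2:**
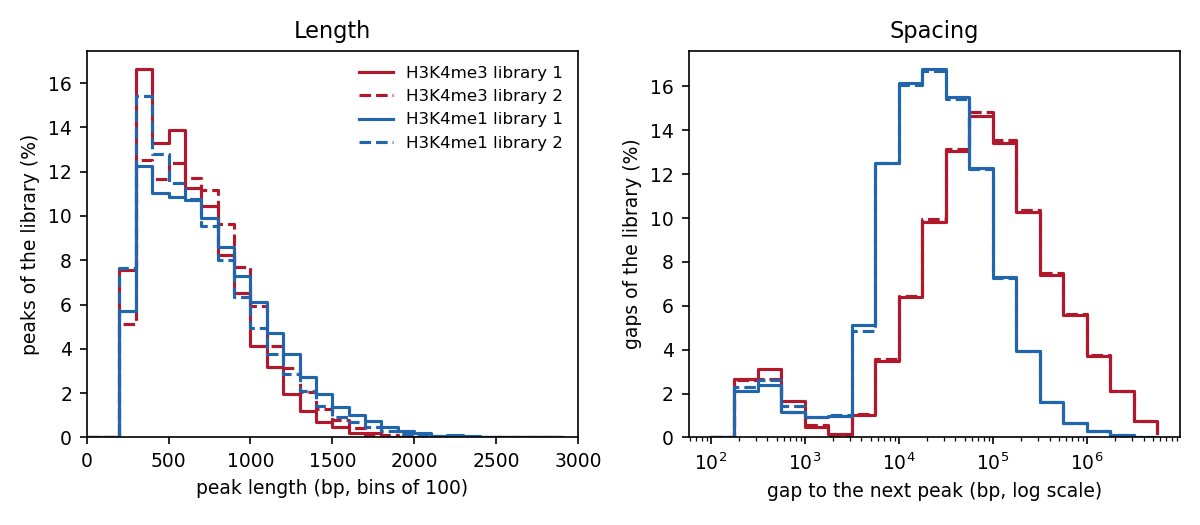
Left, peak length (x axis, bp) against the share of a library's peaks (y axis, percent), with peaks over 3000 bp not drawn. Right, gap to the next peak (x axis, bp, log scale) against the share of gaps. Red is H3K4me3, blue is H3K4me1, solid lines are library 1 and dashed lines library 2; the length curves lie over each other while the gaps centre near 77507 and 23786 bp.

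The marks seldom lay on the same bases. Among H3K4me3 peaks 2.70% and 2.81% touched a held H3K4me1 region, and among H3K4me1 peaks 0.622% and 0.602% touched a held H3K4me3 region (2.75% ± 0.0779 against 0.612% ± 0.0143, SD, n = 2, exact two-sided permutation p = 0.333, no overlap of libraries). In regions this was 283 of 8207 (3.45%) and 284 of 37337 (0.761%). The same pairs are counted from each side, so the difference between marks mostly restates the number of regions of each. Shared sequence came to 83.4 kb, which is 1.17% of the H3K4me3 bases and 0.236% of the H3K4me1 bases, and a touching pair shared a median of 40.2% of the shorter region. The direction of the difference between marks went with the number of held peaks: with each list cut to 10186 peaks, when H3K4me1 had the fewer, it was -0.12 points in place of 2.14. It was 0.772 points with a −log10 q of at least 5, and 3.57 or 4.71 points without H3K4me1 library 1 or 2. Counting an H3K4me1 peak in either library, 10.8% of held H3K4me3 regions were touched. In WT the shared sequence was 692 kb, and 11.3% and 9.13% of H3K4me3 peaks touched H3K4me1.

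Intergenic H3K4me3 regions touched H3K4me1 most often, 37 of 301 (12.3%) against 2.98% at gene ends and 3.81% inside genes. From the side of H3K4me1 the order was the other way, with 8.32% touching at gene ends, 0.584% inside genes and 0.206% in intergenic sequence. The same pairs are counted from each side, and the totals differ greatly. At gene ends, inside genes and in intergenic sequence there were 6621, 1285 and 301 H3K4me3 regions and 1754, 17135 and 18448 H3K4me1 regions. The order of the shares goes with these totals. The most significant H3K4me3 regions were unlike the rest: of the 10 with the highest −log10 q in their weaker library, 8 touched H3K4me1, and of the top 100, 19 did, against 3.45% of all. In 17 touching pairs both ends of the H3K4me3 and H3K4me1 regions agreed to within 50 bp; 10 of these were intergenic, 5 inside genes and 2 at gene ends, and 9 were also held in both marks in WT. In 2 of the 17 the ends were identical, at chr14:19416915-19417349 (−log10 q of 119 and 125 for H3K4me3 and 139 and 134 for H3K4me1) and chr9:3020221-3020549 (70.3 and 66.4, and 73.5 and 80.9). Signal of this kind, alike with different antibodies, is also seen at repeated sequence; no list of such sequence was used here, and its part in these values and in the intergenic share was not tested.

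Strength and touching ran in opposite directions for the 2 marks. From the lowest to the highest quartile of H3K4me3 regions by rank of q, the share at gene ends went from 73.5% to 87.3%. Their median length went from 662 to 933.5 bp and the share touching H3K4me1 from 2.63% to 4.48%. The share with H3K4me1 beside them showed no such rise, at 15.0%, 15.2%, 16.4% and 13.5% from the lowest quartile to the highest. These shares were not matched for length. From the lowest to the highest quartile of H3K4me1 regions the share at gene ends went from 6.13% to 3.44%, the median length from 669 to 1158 bp, the share touching H3K4me3 from 1.38% to 0.289% and the share with H3K4me3 beside them from 5.99% to 1.12%. The strongest H3K4me1 regions were thus the longest and the farthest from H3K4me3. H3K4me1 regions that touched H3K4me3 had a median length of 700 bp and those more than 2 kb from it 891 bp.

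Counted over 2 kb on each side, H3K4me1 lay beside H3K4me3 more often than on it. A held H3K4me1 region lay within 2 kb of 15.4% and 15.3% of H3K4me3 peaks without touching them (15.3% ± 0.108, SD, n = 2), and a held H3K4me3 region lay beside 3.29% and 3.26% of H3K4me1 peaks (3.28% ± 0.0196), 12.1 points apart with no overlap of libraries (exact two-sided permutation p = 0.333). In regions this was 1233 of 8207 for H3K4me3 and 1228 of 37337 for H3K4me1. The flanked numbers are nearly equal because the same pairs are counted from each side. The difference between marks therefore mostly restates the number of regions of each. This difference was -0.39 points under the same cut to 10186 peaks, 3.82 points with a −log10 q of at least 5, and 24.2 or 28.3 points without H3K4me1 library 1 or 2. Flanking and touching are counted over different widths. Flanking takes in 2 kb on each side, and touching only the H3K4me3 peak, with a median of 590 and 670 bp. The flanking share of H3K4me3 peaks went with the width, at 9.33% and 9.34% with a flank of 1 kb. Whether flanking was commoner than its greater width alone would give was not tested. No H3K4me1 was held within 2 kb of 81.9% ± 0.0302 of the H3K4me3 peaks. WT H3K4me3 was flanked about as often, in 14.3% and 15.5% of peaks, and the knockout and WT libraries overlapped (exact two-sided permutation p = 1).

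Flanking was nearly always on 1 side. Of 1233 flanked H3K4me3 regions 16 had H3K4me1 on both sides, 7 of them on chromosome 10. Of 4664 H3K4me3 regions at starts of genes on 1 strand only, 458 (9.82%) had H3K4me1 downstream, towards the gene body, 248 (5.32%) had it upstream and 9 had both. At 753 regions that covered starts on both strands 11.4% had H3K4me1 beside them, against 15.3% at starts of 1 strand. H3K4me1 beside H3K4me3 was thus more often on the transcribed side. At starts of both strands each side is a transcribed one.

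The 5 best-ranked H3K4me3 regions with H3K4me1 on both sides were at Igf1 (insulin-like growth factor 1), Nus1 (a subunit of the dolichol-making prenyltransferase), 5031439G07Rik, Gna11 (a G protein alpha subunit) and Col6a2 (a collagen VI chain), 4 of the 5 on chromosome 10. At Igf1 the H3K4me3 region chr10:87859227-87860962 spanned 1736 bp, with H3K4me1 406 bp away on the side of lower coordinates (945 bp long) and 1982 bp away on the other (483 bp long). At Col6a2 a 1653 bp H3K4me3 region had H3K4me1 79 and 509 bp away on its 2 sides, and at Gna11 a 1105 bp region had neighbours at 284 and 403 bp. At Nus1 the gaps were 899 and 566 bp, and at 5031439G07Rik on chromosome 15 they were 566 and 532 bp. The −log10 q of these H3K4me1 neighbours lay between 2.03 and 9.97, near the caller's threshold in some libraries.

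Around gene starts the 2 marks were complementary in position. At 5900 gene starts chosen for a held H3K4me3 region in the window, the share with an H3K4me3 peak was 55.7% and 60.9% at 500 bp downstream in the 2 libraries, 21.3% and 24.6% at the start itself and 18.6% and 21.1% at 250 bp upstream. H3K4me1 was at its lowest at the same point, 0.390% in each library at 500 bp downstream, with a maximum of 3.31% and 2.90% at 1750 bp downstream and a lower shoulder of 1.69% and 1.64% at 500 bp upstream. Between 15 and 20 kb away it was 1.37% and 1.27%. At 10557 starts without H3K4me3 no such trough was seen to that depth: H3K4me1 was 0.862% and 0.758% at 500 bp downstream and 1.14% and 1.07% at 1750 bp.

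**Figure D3:**
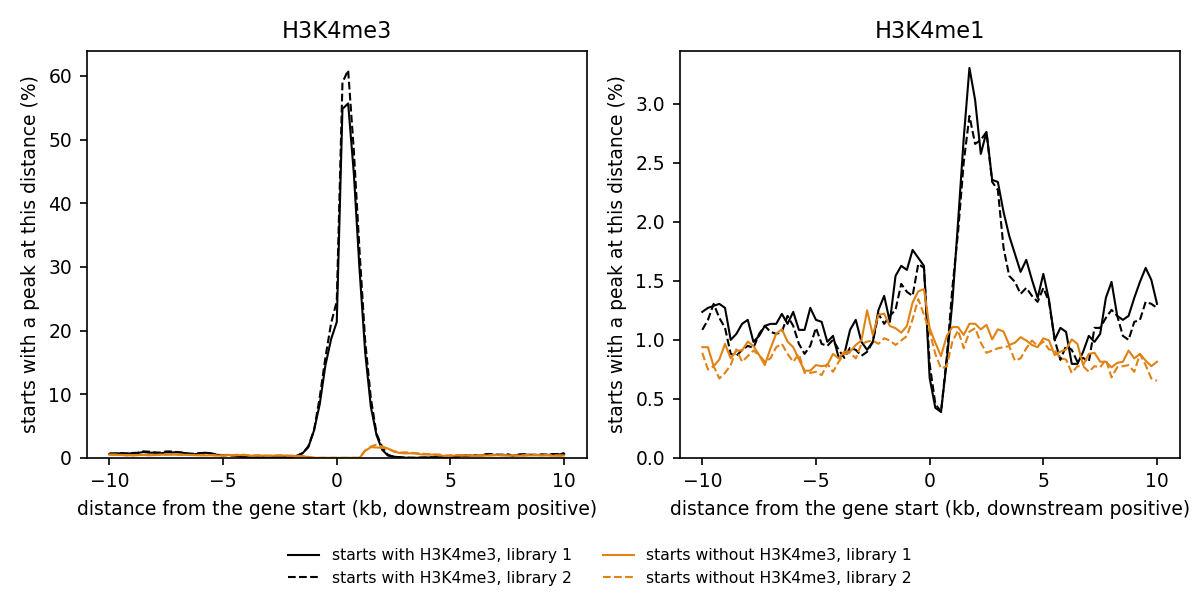
Share of gene starts with a peak (y axis, percent) by distance from the start (x axis, kb, downstream positive) for H3K4me3 on the left and H3K4me1 on the right. Black lines are starts chosen for H3K4me3 and orange lines are other starts, solid for library 1 and dashed for library 2; H3K4me1 drops to 0.390% at 500 bp where H3K4me3 is highest and reaches 3.31% and 2.90% at 1750 bp. The y axes differ.

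The 2 marks also lay in the same neighbourhoods at a larger scale. The median distance from a gene start to the nearest H3K4me1 region was 18119 bp for starts with H3K4me3 and 38055 bp for those without. Genes with H3K4me3 at an end had H3K4me1 somewhere over the gene more often in each quartile of gene length, with 14.2% against 5.89% in the shortest quartile and 78.6% against 66.9% in the longest. These are counts over genes, which are not replicates.

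Each of 20665 autosomal protein-coding genes was placed in 1 of 4 classes by the marks at its ends. H3K4me3 was held at an end of 7416 genes (35.9% of all) and H3K4me1 at an end of 1847 (8.94%); 784 genes (3.79%) carried both, 6632 (32.1%) only H3K4me3, 1063 (5.14%) only H3K4me1 and 12186 (59.0%) neither. H3K4me1 was found at 10.6% of the genes with H3K4me3 and at 8.02% of the others, a ratio of 1.32. The count with both is the least settled of the 4: 1359 of the genes with only H3K4me3 (20.5%) had an H3K4me1 peak at an end in at least 1 library, and a peak in at least 1 library of each mark gave 2734 genes with both, while a −log10 q of at least 5 left 238 and the cut to 10186 peaks left 71. Genes with only H3K4me3 numbered 5349 to 7724 under all 12 alternatives. A region shared by neighbouring genes counts for each, as it did for 18.8% of the H3K4me3 and 9.69% of the H3K4me1 regions at gene ends.

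Carrying both marks did not mean carrying them at the same end. Of 647 genes with both and a listed strand, 378 (58.4%) had both at the start and 255 had H3K4me3 at the start and H3K4me1 at the 3′ end. In the other classes, 5267 of 5391 genes with only H3K4me3 had it at the start, while 486 of 802 with only H3K4me1 had it at the start and 349 at the 3′ end. The best-ranked genes with both show the 2 arrangements. At Hjurp a 1153 bp H3K4me3 region (−log10 q of 13.8 and 19.7 in the 2 libraries) and a 1267 bp H3K4me1 region (11.7 and 14.8) were both at the start, as were those of Adat3, a subunit of a tRNA deaminase, and Scamp4, which share their regions on chromosome 10 (13.0 and 21.5 for H3K4me3, 9.85 and 10.1 for H3K4me1). At Cdk20, a cell-cycle-related kinase, H3K4me3 at the start (24.2 and 20.5) was joined by H3K4me1 at the 3′ end (11.5 and 9.27), and Ttc1, Adamtsl5, Bad (a pro-apoptotic Bcl2 family member), Kdsr (a sphingolipid synthesis enzyme) and Inca1 had the same arrangement. The strand of Plat (tissue plasminogen activator) was not listed; its values were 11.7 and 17.7 for H3K4me3 and 10.8 and 14.9 for H3K4me1.

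The best-ranked genes with only H3K4me3 were Dctn6 (a dynactin subunit) and Mboat4 (ghrelin acyltransferase), which share a region, Babam1, Dclre1c (the Artemis nuclease), Cs (citrate synthase), Fads1 (a fatty acid desaturase), Mak16 (a ribosome biogenesis factor), Eef1akmt3 and Mettl1 (a tRNA methyltransferase), which share another, and Aacs (acetoacetyl-CoA synthetase). Babam1 had −log10 q of 19.2 and 28.1 in the 2 libraries and Dclre1c 19.98 and 22.6. All 10 were in the same class in WT, as were 6196 of all 6632 genes with only H3K4me3. Mboat4, Dclre1c and Mak16 had an H3K4me1 peak at an end in at least 1 knockout library, as did 20.5% of all genes of the class.

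Among the best-ranked genes with only H3K4me1, Kera (keratocan, a proteoglycan of the cornea) had a 1467 bp H3K4me1 region at its start with −log10 q of 23.7 and 14.7, Nepn (nephrocan) 16.4 and 12.8 and Ms4a2 (a chain of the mast cell IgE receptor) 13.6 and 17.6, both at the start. Dbh had 17.1 and 16.5 at its 3′ end, and Cyp2s1 (a cytochrome P450), 1520401A03Rik and Saa4 (a serum amyloid protein) also had their best-ranked H3K4me1 at the 3′ end. Cthrc1 (a secreted collagen-associated protein), Lipg (endothelial lipase) and Rslcan18 (a KRAB zinc finger protein) complete the 10. In WT 7 of the 10 were in the same class, against 419 of all 1063 genes with only H3K4me1, and Cthrc1, Lipg and 1520401A03Rik carried both marks.

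Classes were compared with WT for all genes. Of the 784 genes with both marks in the knockout, 434 had both in WT and 349 had only H3K4me3, and of the 6632 with only H3K4me3, 6196 were in that class in WT. The genes with only H3K4me1 were the most mixed: of 1063, 419 were in the same class in WT, 273 had both marks, 182 only H3K4me3 and 189 neither. In WT 53.6% of genes had H3K4me3 and 9.91% had H3K4me1 at an end, and 2979 genes that carried neither in the knockout had only H3K4me3 in WT, beside the stronger WT H3K4me3 peaks.

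H3K4me3 at gene ends went with promoter CpG content over a wide range, and H3K4me1 differed mainly between the lowest bin and the rest. Over 16457 genes with a listed promoter of 300 bases (79.6% of all, chromosome 18 not in the table), promoters touched by a held H3K4me3 region alone, by as little as 1 bp, had a median of 21 CpG (3484 promoters), those touched by H3K4me1 alone 6 CpG (269), by both 16 CpG (74) and by neither 9 CpG (12630). The share of genes with H3K4me3 at an end went from 3.81% with 0 to 2 CpG through 44.8% with 10 to 14 to 61.6% with 20 to 29 CpG and was 55.7% with 30 or more. H3K4me1 at an end stayed between 8.96% and 11.6% in all bins but the lowest, where it was 4.45%. The letters TATAAA, on either strand, occurred in 4.74% of promoters touched by H3K4me3 alone, 13.0% of those touched by H3K4me1 alone and 16.0% of those touched by neither. The Hjurp, Babam1 and Dbh promoters above have 22, 12 and 2 CpG, and neither mark lay over that of Dbh.

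**Figure D4:**
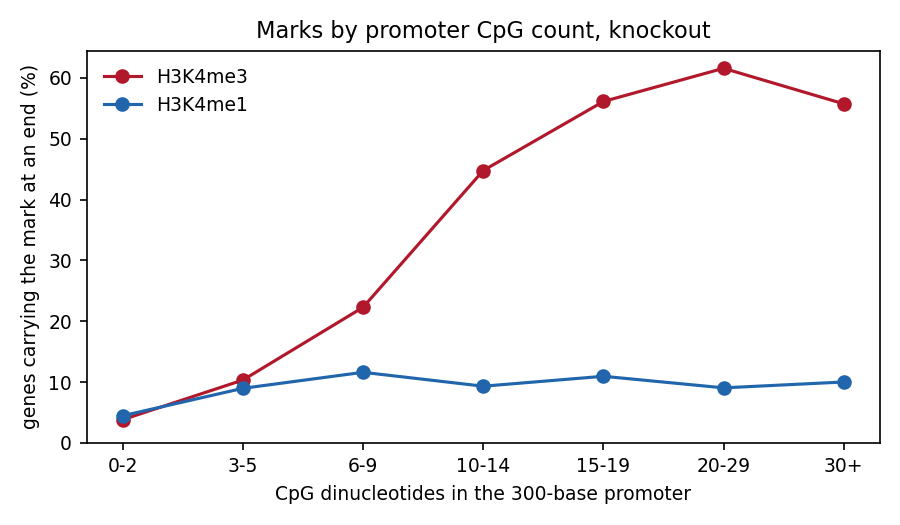
Share of genes carrying a mark at an end in both knockout libraries (y axis, percent) by the number of CpG dinucleotides in the 300-base promoter (x axis, bins). H3K4me3 goes from 3.81% to 61.6% and 55.7% in the last bins, while H3K4me1 is 4.45% in the first bin and between 8.96% and 11.6% in the others.

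Gene groups differed in which mark they carried. Genes of the proteasome, the complex that degrades ubiquitinated proteins, had H3K4me3 at 26 of 31 and H3K4me1 at none, with Psmc6, Psmd4, Psma2 and Psmc5 ranked highest. Of 38 genes of the respiratory chain, 35 carried H3K4me3 and 3 carried both marks: Atp5b (an ATP synthase subunit), Ndufs4 (complex I) and Uqcrc1 (complex III). Of 79 cytosolic ribosomal protein genes 56 carried H3K4me3 and 4 carried H3K4me1, Rpl10a being the one with H3K4me1 alone (8.26 and 8.22 at its start) and Rps14 and Rpl21 being among those with both. Ribosomal protein genes have many processed copies, so where their reads were placed is uncertain. Against 35.9% and 8.94% over all genes, the shares with H3K4me3 were 83.9%, 92.1% and 70.9%, and those with H3K4me1 0%, 7.89% and 5.06%. All 3 lists were high in WT as well, with H3K4me3 at 30, 37 and 75 genes, where 53.6% of all genes carried it.

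Fibroblast genes were the list with the largest share of H3K4me1. Of 27 genes of the fibroblast matrix and surface, 12 carried H3K4me1 (44.4% against 8.94% of all genes), 6 of them with H3K4me3 and 6 without, 4 carried only H3K4me3 and 11 neither. Those with both were Col6a1, Col6a2 and Col5a2 (collagen chains), Sparc (a matrix glycoprotein), Dcn (decorin) and Acta2 (smooth muscle actin). At Sparc the start window held H3K4me3 (5.14 and 8.83) and H3K4me1 (6.81 and 6.83). H3K4me1 alone marked Col5a1 (8.96 and 9.88 at the start), Eln (elastin, 12.7 and 7.70), Lum (lumican, a region of 2317 bp), Fap, Col1a2 and Postn (periostin). H3K4me3 alone marked Thy1, Ddr2 (a collagen receptor), Pdgfrb and Col6a3. H3K4me3 was at 10 of the 27 in the knockout (37.0%, near the 35.9% of all genes) and at 19 in WT, where 53.6% of all genes carried it. H3K4me1 was at 12 of the 27 in the knockout and at 13 in WT, where 9.91% of all genes carried it. Col6a1, Col6a2, Dcn and Lum are on chromosome 10.

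Of 25 genes of sterol and lipid synthesis 17 carried H3K4me3 (68.0% against 35.9% of all genes) and 5 H3K4me1 (20% against 8.94%), with both at Srebf2 (the master regulator of cholesterol synthesis), Acly (ATP citrate lyase), Dhcr7 and Mvd (enzymes of the cholesterol pathway), and H3K4me1 alone at Scd2 (a fatty acid desaturase). Of 24 Notch pathway genes 8 carried H3K4me3 (33.3%, near the 35.9% of all genes) and 5 H3K4me1 (20.8%). Notch1 had H3K4me3 at its start (7.66 and 7.01) and H3K4me1 at its 3′ end (11.8 and 10.9), Maml2 (a coactivator of Notch) and Dll1 (a ligand) had both at the start, and the ligands Dll4 and Jag1 had H3K4me1 alone. Of 26 genes of the TGF-beta pathway 9 carried H3K4me3 (34.6%, also near that of all genes) and 1, the receptor Tgfbr2, carried both. H3K4me1 lay somewhere over 23 of the 26 (88.5%), against 33.4% of all genes. This measure goes with gene length. From the shortest to the longest quartile it was 14.2% to 78.6% of genes with H3K4me3 and 5.89% to 66.9% of the others. The list was not matched for length. In WT, H3K4me3 was at 21 of the 25 sterol and lipid genes, 20 of the 24 Notch genes and 24 of the 26 TGF-beta genes. Of all genes 53.6% carried it in WT, beside the stronger WT H3K4me3 peaks.

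Among 30 AP-1 and immediate-early genes, which respond to growth factors within minutes, 7 carried H3K4me3 (23.3% against 35.9% of all genes) and 5 carried H3K4me1 (16.7% against 8.94%) in the knockout, with both at Fosl1 (an AP-1 subunit) and Ccn2 (connective tissue growth factor). The H3K4me1 of these genes was weak, with −log10 q of 4.32 and 3.64 at Fosl1 and 4.21 and 2.78 at Ccn2. In WT 27 of the 30 carried H3K4me3 and 3 carried H3K4me1, where 53.6% and 9.91% of all genes did. Egr1, Atf3, Klf10, Nr4a2 and Dusp4 had H3K4me3 alone, and Dusp6, Ier3 and Jund had H3K4me1 alone. The 20 with neither included Jun, Junb, Fos, Fosb and Myc, of which Fos had an H3K4me3 peak in at least 1 knockout library, Jun and Junb an H3K4me1 peak and Fosb and Myc a peak of each mark.

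Of 22 genes of the SCF ligase and its Fbxw7 substrates 10 carried H3K4me3 (45.5% against 35.9% of all genes) and 4 carried both (18.2% against 3.79%; Srebf2, Notch1, Cebpd and Cebpa), and none carried H3K4me1 alone. The H3K4me1 of Srebf2 and Notch1 was at the 3′ end. That of Cebpa (−log10 q of 2.76 and 5.99) and Cebpd (3.46 and 4.49) was weak, at percentile ranks of 1.77 and 6.26. In WT 19 of the list carried H3K4me3 and 2 carried H3K4me1, against 53.6% and 9.91% of all genes. Of 37 cell cycle and replication genes 18 carried H3K4me3 (48.6%) and 5 carried H3K4me1 (13.5%), led by Cdk4 (−log10 q of 19.02 and 24.8, with H3K4me1 at the same start), Top2a (topoisomerase II) and Pcna (the replication clamp), and Bub1, Cdt1 and Cdc6 carried H3K4me1 alone. Of 19 genes that write or erase H3K4 methylation 11 carried H3K4me3 (57.9%), among them Wdr5 and Men1, and Kmt2b was the 1 with both marks. The H3K4me1 of Kmt2b was weak, with −log10 q of 2.69 and 3.79. Kmt2d, the gene of MLL4, is counted for a region in its 3′ window and had others inside the gene. In WT, H3K4me3 was at 34 of the 37 cell cycle and replication genes. It was at 17 of the 19 genes that write or erase H3K4 methylation, again against 53.6% of all genes.

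Over all genes 59.0% carried neither mark, and among developmental regulators the share was 67.6% for mesenchymal transcription factors and 76.9% for Hox genes. Of 34 mesenchymal transcription factors 8 carried H3K4me3 alone, including Prrx2 (9.04 and 11.6), Snai2 and Sox9, 3 carried H3K4me1 alone (Snai1, Runx2 and Prrx1) and 23 neither; Runx2 had 22 H3K4me1 regions over the gene. H3K4me1 was at 8.82% of these factors and 10.3% of Hox genes, near the 8.94% of all genes. H3K4me3 was at 23.5% of these factors and 15.4% of Hox genes, against 35.9% of all genes. In WT 22 of the 34 factors carried H3K4me3, where 53.6% of all genes did. Of 39 Hox genes 5 carried H3K4me3 alone, 3 H3K4me1 alone (Hoxc8, Hoxd4 and Hoxa2), 1 both (Hoxd3) and 30 neither. In WT 27 of the 39 carried H3K4me3, against the same 53.6% of all genes. Olfactory receptor genes, which are silent in fibroblasts, had H3K4me3 at none of 1100 and H3K4me1 at 10. Of the markers of other cell types, H3K4me1 alone was at Lyz2, Cd34, Tek, Grhl2 and Nes, and H3K4me3 alone at Flt1, Esrp2 and Ptpn11. Ptpn11 is a widely used phosphatase gene and marks no single cell type. List members were matched by symbol or, failing that, by synonym. No pluripotency or myogenic marker carried either mark.

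**Figure D5:**
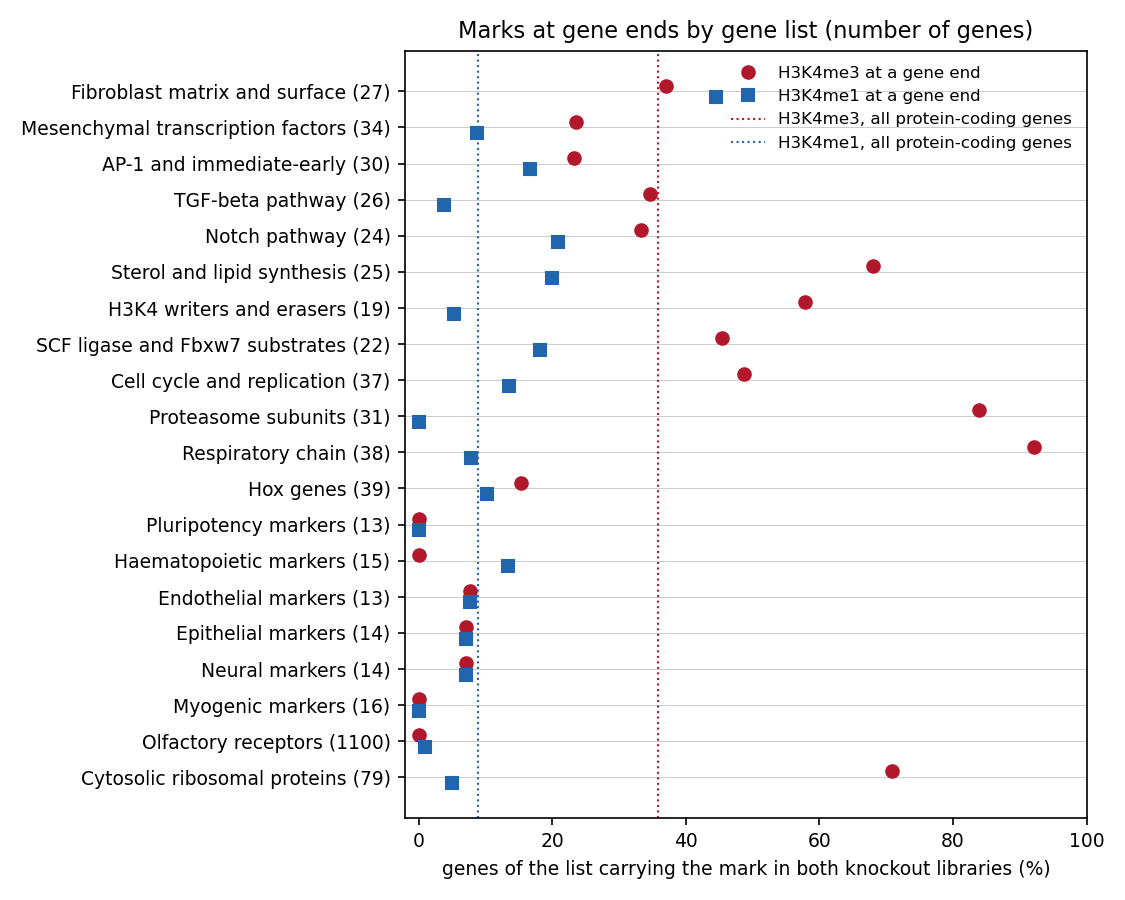
Share of the genes of each list (y axis, number of genes in parentheses) that carried H3K4me3 (red circles) or H3K4me1 (blue squares) at a gene end in both knockout libraries (x axis, percent). Dotted lines are all protein-coding genes, 35.9% and 8.94%; the fibroblast list has the highest H3K4me1 share (44.4%) and the respiratory chain the highest H3K4me3 share (92.1%).

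Chromosome 10 had the highest share of genes with both marks. It carried 3079 held H3K4me1 and 511 H3K4me3 regions, 308 and 51.0 per 100 genes, the highest of the autosomes for each mark, with chromosome 18 next for H3K4me1 (292) and chromosome 8 next for H3K4me3 (47.5). Of its genes, 94 of the 450 with H3K4me3 (20.9%) also carried H3K4me1, against 9.91% on the other autosomes together and 4.59% to 13.0% on each. Its median H3K4me1 pileup was 21 and 20 in the knockout libraries against 18 and 17 elsewhere, and its H3K4me3 pileup 19 and 21 against 16 and 17. In WT the share of H3K4me3 genes with H3K4me1 was 18.4% on chromosome 10 and 12.0% elsewhere, at pileups of 19 and 18 for H3K4me1 in both sets. Without chromosome 10 the knockout had 690 genes with both marks, and the difference between marks was 74.2 points in place and 1.88 points in overlap. The cause was not tested.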

How the data were processed

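Cut & Run was performed on mouse embryonic fibroblasts with antibodies to H3K4me1 and H3K4me3, 2 libraries for each mark and genotype; the MLL4 libraries were not used here. Per the submitters' processing notes, Bowtie2, SAMtools 1.5, bedtools, MACS2, deepTools and HOMER 4.10 were applied on mm10. Peak calling was done by the authors for every library on its own, in MACS 2.1.0.20150731 with paired fragments per the file headers, at a q of 0.01, without a control library, with a regional background of 10000 bp and broad calling off; the caller kept 1 fragment at a position for knockout H3K4me3 and 2 for knockout H3K4me1. The deposited values used are each peak's pileup (signal), −log10 q, fold enrichment (a ratio) and length. They served to describe and rank peaks within a library. A narrow caller with a local background can split or shorten wide domains.

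Held regions, gene classes and distances were computed in Python 3.11.15 (pandas 2.3.3, numpy 2.4.6) with scripts tested on simulated data, where 14 of 14 quantities were recovered. Values per library came from its own peaks in held regions and were compared by an exact two-sided permutation test over the 6 assignments. Gene ends and strand came from RefSeq on GRCm38.p6: 16457 of 20665 genes had a listed promoter, and promoter CpG by gene class is not given because fewer than 80% of the genes in 2 classes matched. The rule for named genes was Fbxw7, the 10 best-ranked genes of each class, the 5 longest regions of each mark, the 5 best-ranked H3K4me3 regions with H3K4me1 on both sides, the 5 longest H3K4me1 runs, and at most 8 members for each class of a list; a rank is the lower percentile by q in the 2 libraries. Some named items are not reported here. Members and lists were chosen with earlier results of these data known. The alternatives were a stricter q, equal list lengths, bases covered by both libraries, no chromosome 10, other windows and flanks, a 50% overlap, each library left out, and the replicate number as a block. Same-numbered libraries did not stand apart: 5.88% and 4.89% of H3K4me3 peaks touched H3K4me1 peaks of the same number, and 4.57% and 6.28% of the other. Fragments at one place are not independent molecules, so the counts carry no counting interval.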

Additional observations from a re-analysis of the deposited data

How the results depend on the processing

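The difference in place and the number of genes with only H3K4me3 kept their direction or size under all 12 alternatives tried for each. Cutting every list to 10186 peaks by q turned the direction of spacing (-1.28 on the log2 scale), overlap (-0.12 points) and flanking (-0.39 points); 4852 and 4860 H3K4me1 peaks then remain in held regions against 8215 and 8092 for H3K4me3, so the cut does not equalise the held sets. The log2 length ratio changed sign when only bases covered by both libraries counted (0.0098, a value with no test, since both libraries then hold the same intervals) and ranged from -0.27 to 0.26 with each library left out. Genes with both marks numbered 238 at a −log10 q of at least 5, 71 with that cut, 390 with a 500 bp window, 1594 with a 2 kb window, 512 at the listed start sites and 2734 with a peak in at least 1 library, an alternative chosen after seeing the data; with each library left out they numbered 854 to 1599. Genes with only H3K4me1 numbered 674, 107, 530 (start sites) and 1649 (at least 1 library) in the same order, and 920 to 1790 with each library left out. With a library left out, the mark rests on the other alone, which is then assumed to vary like the first. The fit with the replicate number as a block gave the same differences (-0.06, 74.4, 1.70, 2.14 and 12.1, for length, place, spacing, overlap and flanking), with exact sign-flip p of 0.5, the smallest that 2 pairs allow, or 1 for length; the numbers share no origin in the labels. At 5519477 and 5938102 fragments for H3K4me3, a mark missing from a gene was not detected at this depth, and is not shown to be absent.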
